A study of Mus musculus with 16 samples.

Results

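The core circadian clock loop was followed in mouse ventricles through 10 genes of the 55573 in the count table: the activators Arntl (also named Bmal1), Clock and Npas2, the repressors Per1, Per2, Per3, Cry1 and Cry2, and the nuclear receptors Nr1d1 and Nr1d2 (REV-ERBα and REV-ERBβ). The members were taken by their textbook role and matched to the table by Ensembl identifier, and the loop itself was chosen from the measured values, because clock genes were put forward after the largest changes between these hearts had been seen. The calls below are therefore a description of these hearts and no independent evidence. All 10 genes passed the filter on low counts that left 19955 genes for testing.

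RNA-seq was performed on whole ventricles of 16 male mice in 4 groups of 4, each mouse a biological replicate. Every mouse, controls included, carried aMHC-MerCreMer and Trbp-Flox/Flox: the αMHC promoter drives a tamoxifen-dependent Cre in cardiomyocytes, which removes Trbp (gene symbol Tarbp2, an RNA-binding partner of Dicer). Trbp-cKO mice were given tamoxifen at 30 mg/kg on 5 days from the age of 4 weeks, whereas control mice were given corn oil. Both then underwent sham surgery or transverse aortic constriction (TAC), which overloads the left ventricle with pressure, and hearts were taken about 8 weeks later at the age of 16 weeks. No tamoxifen-treated group without the floxed alleles was analysed here, so the deletion and the drug cannot be told apart. The hour at which each heart was collected is not given in the sources used here, so hour and group cannot be told apart either.

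Arntl pairs with Clock or Npas2, and the pair binds E-box sequences and activates the Per, Cry and Nr1d genes. PER and CRY proteins return to the nucleus and block the pair, which closes the main loop over about a day. REV-ERB proteins repress Arntl through ROR elements, which the ROR receptors bind as activators, and the D-box factors Dbp, Tef and Hlf (activators) and Nfil3 (a repressor) form a further arm that acts on Per genes. In the heart the cardiomyocyte clock is known for setting daily rhythms in metabolism and ion channel expression, and the level of each clock transcript depends strongly on the hour of the day.

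All members are protein-coding, and their positions are those of GENCODE M21 on GRCm38. The activators are Arntl (ENSMUSG00000055116, chr7:113207465-113314126, plus strand), Clock (ENSMUSG00000029238, chr5:76209868-76304792, minus strand) and Npas2 (ENSMUSG00000026077, chr1:39193731-39363236, plus strand). The cryptochrome genes are Cry1 (ENSMUSG00000020038, chr10:85131700-85185064, minus strand) and Cry2 (ENSMUSG00000068742, chr2:92403646-92434043, minus strand). The period genes are Per1 (ENSMUSG00000020893, chr11:69095217-69109960, plus strand), Per2 (ENSMUSG00000055866, chr1:91415982-91459324, minus strand) and Per3 (ENSMUSG00000028957, chr4:151003652-151044665, minus strand). The REV-ERB genes are Nr1d1 (ENSMUSG00000020889, chr11:98767932-98775333, minus strand) and Nr1d2 (ENSMUSG00000021775, chr14:18204054-18239127, minus strand).

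Promoter windows from RefSeq (GRCm38.p6, 250 bases before to 50 after a start site) were available for 9 of the 10 genes, in 13 windows, and Per2 was without an entry. They were searched on both strands for the E-box CACGTG, the ROR element TAGGTCA or TAGGTTA, and the D-box TTATGTAA or TTACGTAA, and no found motif overlapped another. A window is shown for each gene in which a motif was found: Arntl with its 2 ROR elements, Per3 with its 2 D-boxes, and Per1 and Cry1 with an E-box each. A further Per1 window, chr11:69099902-69100201, held none of these motifs. Motif letters are in capitals, every sequence runs 5′ to 3′ along the gene's strand, and the windows are chr7:113207261-113207560 (plus strand) for Arntl, chr10:85185005-85185304 (minus) for Cry1, chr11:69098699-69098998 (plus) for Per1 and chr4:151044616-151044915 (minus) for Per3.
Arntl: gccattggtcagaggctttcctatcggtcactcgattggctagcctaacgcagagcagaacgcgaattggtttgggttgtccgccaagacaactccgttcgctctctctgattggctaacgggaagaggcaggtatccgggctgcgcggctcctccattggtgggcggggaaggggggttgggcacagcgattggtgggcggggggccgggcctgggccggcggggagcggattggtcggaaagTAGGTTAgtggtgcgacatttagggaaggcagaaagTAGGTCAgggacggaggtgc
Per3: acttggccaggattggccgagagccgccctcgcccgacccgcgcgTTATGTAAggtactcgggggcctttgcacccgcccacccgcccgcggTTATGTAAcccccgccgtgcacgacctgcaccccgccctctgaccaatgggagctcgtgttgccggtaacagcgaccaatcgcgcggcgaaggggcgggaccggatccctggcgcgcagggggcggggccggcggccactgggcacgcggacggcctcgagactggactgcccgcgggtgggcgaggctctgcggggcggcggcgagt
Per1: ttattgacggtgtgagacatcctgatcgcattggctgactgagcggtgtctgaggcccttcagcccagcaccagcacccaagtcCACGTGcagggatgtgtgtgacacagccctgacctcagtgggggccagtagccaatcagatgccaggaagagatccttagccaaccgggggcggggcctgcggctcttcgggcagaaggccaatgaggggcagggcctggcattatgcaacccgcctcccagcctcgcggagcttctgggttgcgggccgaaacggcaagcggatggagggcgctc
Cry1: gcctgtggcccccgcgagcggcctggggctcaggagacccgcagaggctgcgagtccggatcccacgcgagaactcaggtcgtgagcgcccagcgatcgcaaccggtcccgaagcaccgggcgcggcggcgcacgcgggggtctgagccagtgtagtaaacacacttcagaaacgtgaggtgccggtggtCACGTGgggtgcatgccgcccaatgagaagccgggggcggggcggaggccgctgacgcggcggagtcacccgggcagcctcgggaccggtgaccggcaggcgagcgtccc

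Positions are counted from the start site as base 1, with negative positions before it. In the Arntl window TAGGTTA began at -6 and TAGGTCA at 31. An earlier Arntl start site, whose window overlaps this one, holds the TAGGTTA alone of the 2. The Per3 D-boxes began at -205 and -158, the Per1 E-box at -166 and the Cry1 E-box at -60. Of all 32851 RefSeq windows, 7.15% held the E-box, 4% a ROR element and 1.06% a D-box of these letters. None of the 3 motifs was found in the windows of Clock, Npas2, Cry2, Nr1d1 and Nr1d2, which says only that these exact letters are not in those 300 bases. A match is a description of the sequence, and no binding was measured.

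The targeted gene followed the labels. Tarbp2 was at 30.6 to 33.3 CPM (the count divided by the TMM-adjusted library size and scaled to a common depth) in control sham, 21.1 to 31.1 in control TAC, 8.39 to 11.4 in hearts with deletion and sham surgery and 7.14 to 9.74 in those with deletion and TAC. Total counts were 45166994 to 68274222 per heart. The 6 cardiomyocyte markers summed to 39700 CPM or more in 13 hearts, to 29800 CPM in Trbp-cKO TAC heart 4 and to 23800 and 18900 CPM in control TAC hearts 1 and 2, where endothelial markers (1040 and 1060 CPM) and the mitochondrial share of counts (38.2% and 38.8%) were the highest of the 16 hearts. Of the 4 atrial markers, Myl7 and Sln were under 1 CPM in every heart. The sum of the 4 was 542 to 1020 CPM in control sham, 1620 to 3860 in control TAC, 1010 to 1520 in Trbp-cKO sham and 10300 to 15700 CPM in Trbp-cKO TAC hearts, and Nppa and Myl4 were called higher in the last group than in control TAC hearts (log2 fold changes 2.09 and 1.9) and than in Trbp-cKO sham hearts (3.29 and 1.32). Nppa, a natriuretic peptide gene, is also known to be induced in stressed ventricles. Because these are bulk ventricles, fewer cells of a type and less RNA per cell cannot be told apart.

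Among the activators, Arntl differed most between hearts. Arntl was at 16.2, 20.3, 17.2 and 12.5 CPM in control sham hearts 1 to 4 and at 8.46, 8.75, 3 and 2.65 CPM in control TAC hearts. It was at 2.11, 2.62, 3.16 and 3.18 CPM in Trbp-cKO sham hearts and at 3.39, 2.79, 17.9 and 14.9 CPM in Trbp-cKO TAC hearts. Every control sham heart therefore lay above every control TAC and every Trbp-cKO sham heart. Trbp-cKO TAC hearts 1 and 2 lay near the Trbp-cKO sham hearts, while hearts 3 and 4 lay within the control sham range. The group means were 16.5 ± 3.2 (SD, n = 4), 5.71 ± 3.34, 2.77 ± 0.509 and 9.76 ± 7.8 CPM in the same order of groups, and the last mean falls between the 2 pairs of hearts and describes none of them.

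Clock, the usual partner of Arntl, moved over a narrower range. In control sham hearts it was at 40.6, 48.6, 45.2 and 40.6 CPM, and in control TAC hearts at 35.1, 35.4, 32.7 and 33.1 CPM. Trbp-cKO sham hearts held 23.1, 27.7, 28.9 and 30.6 CPM, and Trbp-cKO TAC hearts 38.4, 33.2, 41.9 and 45.6 CPM. The Trbp-cKO sham group was the lowest and overlapped none of the others, and the Trbp-cKO TAC group overlapped both control groups.

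Npas2, the paralog of Clock that also pairs with Arntl, was the least abundant member by CPM. Its values were 5.58, 6.09, 3.68 and 3.81 CPM in control sham and 2.69, 1.94, 1.42 and 1.7 CPM in control TAC hearts. After deletion they were 2.18, 2.05, 1.83 and 1.69 CPM with sham surgery and 1.1, 1.34, 4.02 and 4.24 CPM with TAC. As with Arntl, Trbp-cKO TAC hearts 3 and 4 reached the control sham range. For Npas2, though not for Arntl, Trbp-cKO TAC hearts 1 and 2 were the lowest of all 16.

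**Figure D1:**
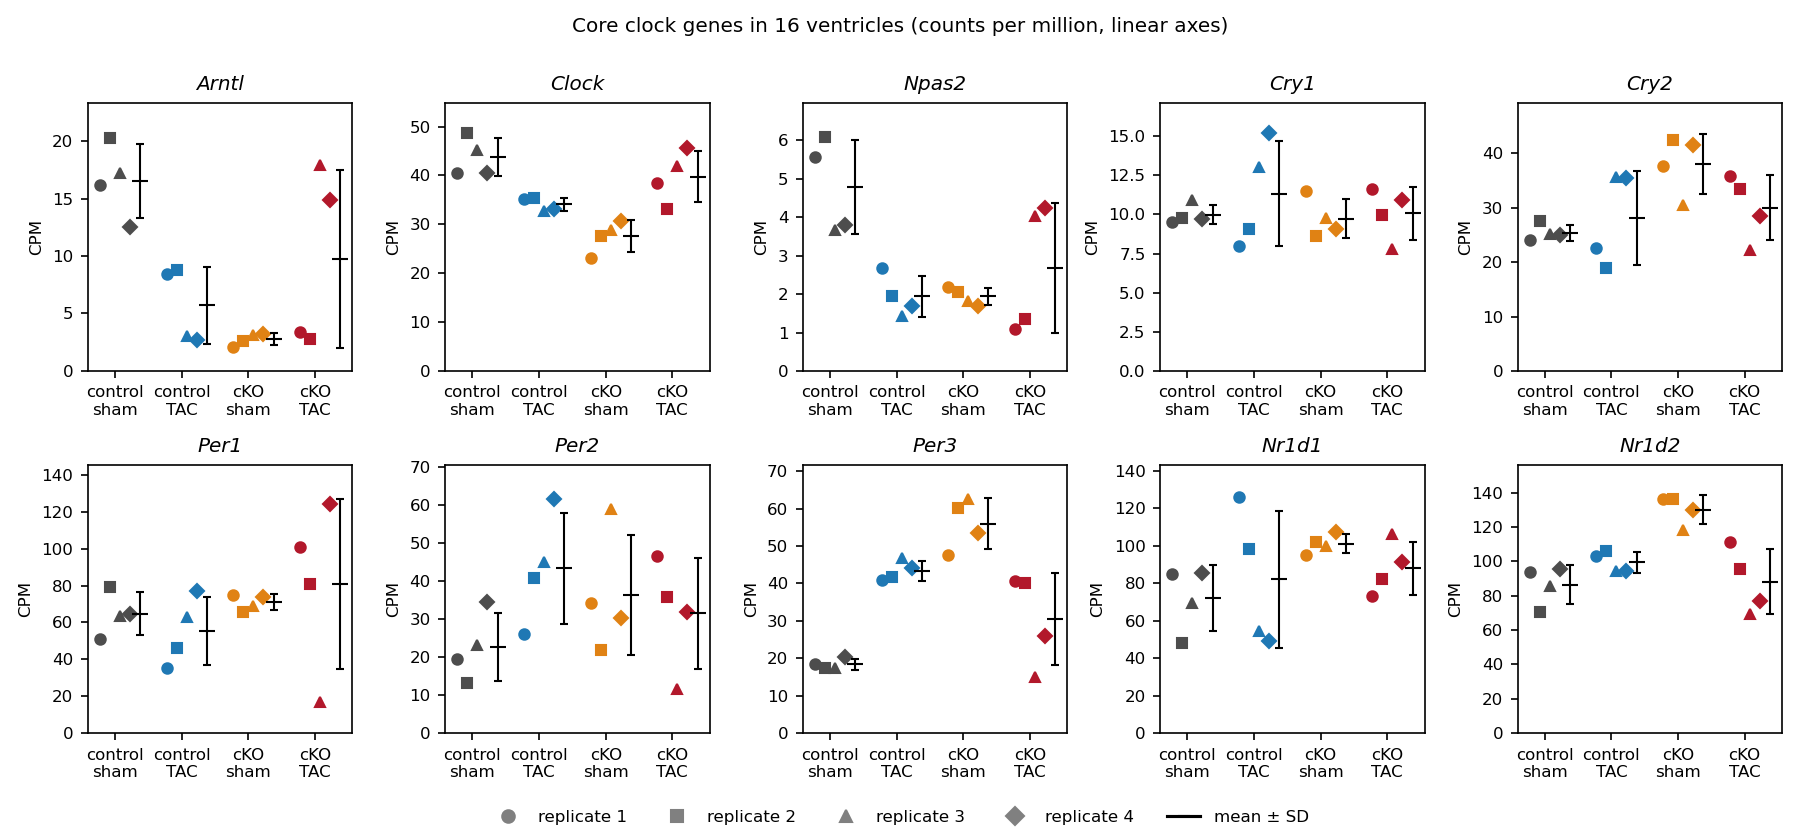
Level of each core clock gene in each heart, in CPM on linear axes that start at 0, with 1 point per heart (shape gives the replicate number) and the mean ± SD of 4 hearts in black. In Trbp-cKO TAC hearts Arntl splits into 3.39 and 2.79 against 17.9 and 14.9 CPM, and Per3 into 40.6 and 40 against 15.1 and 25.9 CPM.

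Of the period genes, which encode the PER repressors, Per3 separated the groups most. Per3 stood at 18.4, 17.3, 17.4 and 20.3 CPM in control sham hearts and at 40.8, 41.6, 46.9 and 44 CPM in control TAC hearts. Trbp-cKO sham hearts reached 47.5, 60.1, 62.7 and 53.5 CPM, and Trbp-cKO TAC hearts held 40.6, 40, 15.1 and 25.9 CPM. The order was the reverse of that of Arntl: control sham hearts were low, Trbp-cKO sham hearts were the highest group, and Trbp-cKO TAC hearts 3 and 4 were the lower pair of their group, heart 3 being the lowest of all 16.

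Per2, the period gene with the strongest known effect on rhythm when lost, varied widely inside each group. Control mice had 19.6, 13.3, 23.1 and 34.6 CPM after sham surgery and 26.1, 40.7, 45.1 and 61.7 CPM after TAC. Trbp-cKO mice had 34.2, 21.9, 58.9 and 30.3 CPM after sham surgery and 46.5, 35.9, 11.7 and 31.9 CPM after TAC. All pairs of groups overlapped. Per1, which is also induced acutely by glucocorticoids and by cAMP signaling, was at 51, 79.4, 63.4 and 64.8 CPM in control sham and at 35, 46.2, 63 and 77.3 CPM in control TAC hearts. It was at 75.1, 65.8, 68.8 and 74 CPM in Trbp-cKO sham and at 101, 80.7, 16.7 and 124 CPM in Trbp-cKO TAC hearts. Per1 and Per2 were both at their lowest of the 16 hearts in Trbp-cKO TAC heart 3, whereas heart 4, with a like level of Arntl, had the highest Per1 of all.

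The cryptochromes, which with PER form the complex that blocks Clock and Arntl, differed less. Cry1 ranged from 7.76 to 15.2 CPM over the 16 hearts. Its mean was 9.99 ± 0.646 CPM after sham surgery and 11.3 ± 3.35 CPM after TAC in control mice, and 9.73 ± 1.26 and 10.1 ± 1.68 CPM in Trbp-cKO mice (SD, n = 4). Cry2 was at 24 to 27.5 CPM in control sham and 30.4 to 42.5 CPM in Trbp-cKO sham hearts, which did not overlap. In control TAC hearts 1 to 4 Cry2 was at 22.5, 18.9, 35.6 and 35.5 CPM, and Cry1 at 7.98, 9.09, 13 and 15.2 CPM. For both genes control TAC hearts 1 and 2, the hearts with low cardiomyocyte markers, were below hearts 3 and 4. In Trbp-cKO TAC hearts Cry2 was at 35.8, 33.4, 22.2 and 28.5 CPM, with hearts 3 and 4 the lower pair.

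The REV-ERB repressors were the most abundant members by mean CPM. Nr1d1 was at 84.7, 48.1, 69.2 and 85.6 CPM in control sham and 126, 98.3, 54.5 and 49.3 CPM in control TAC hearts, and at 94.8, 102, 100 and 107 CPM in Trbp-cKO sham and 72.9, 81.9, 106 and 91.1 CPM in Trbp-cKO TAC hearts. Control TAC hearts 1 and 2 were the higher pair for Nr1d1, opposite to their place for Cry1 and Cry2. Nr1d2 was at 93.6, 70.4, 85.7 and 95.7 CPM in control hearts after sham surgery and at 103, 106, 94.2 and 94.2 CPM after TAC. With deletion it was at 136, 136, 118 and 130 CPM after sham surgery and at 111, 95.6, 69.4 and 76.8 CPM after TAC. The Trbp-cKO sham group was above all others for Nr1d2. Thra lies on the opposite strand over 8.55% of the exon bases of Nr1d1, Nr1d2 shares 5.13% of its 50-base words with AC170187.1, and D930015M05Rik lies on the opposite strand over 4.67% of the exon bases of Cry2, so reads of these 3 genes may be shared with others.

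Levels can be ordered between genes only per length. Divided by exon length, the control sham means in CPM per kb were 23.4 ± 5.71 for Nr1d1, 16 ± 2.12 for Nr1d2, 11.5 ± 2.06 for Per1, 4.02 ± 0.234 for Cry2, 3.87 ± 1.52 for Per2, 3.19 ± 0.284 for Clock, 2.99 ± 0.193 for Cry1, 2.2 ± 0.425 for Arntl, 1.91 ± 0.143 for Per3 and 1 ± 0.256 for Npas2 (SD, n = 4). The intervals of mean ± SD overlapped between the neighbours Nr1d1 and Nr1d2, Cry2 and Per2, Per2 and Clock, Clock and Cry1, and Arntl and Per3. Nr1d1, Nr1d2 and Per1 kept ranks 1, 2 and 3 in all 4 groups. Arntl was at rank 8 in control sham and at rank 10, below Npas2, in Trbp-cKO sham hearts, and Per3 went from rank 9 to rank 6 between the same groups.

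The first comparison asked how pressure overload changed the loop in control hearts. Per3 was 2.36-fold higher in control TAC than in control sham hearts (log2 fold change 1.24, SE 0.22, adjusted p = 0.00694 by edgeR) and Npas2 was lower, at 0.404 of the sham level (-1.31, SE 0.37, adjusted p = 0.0493). Thus 2 of 10 members were called, against 3.75% of all genes tested, where a called gene had adjusted p at or under 0.05 and changed by 0.8 or more on the log2 scale. The share of all genes that passed the adjusted p alone was 6.29%, and the same 2 members did so. Arntl had a log2 fold change of -1.54 (SE 0.53, adjusted p = 0.09, edgeR) and was not called, although every control TAC heart was below every control sham heart. DESeq2 (adjusted p = 0.0229) and edgeR's exact test on both groups (0.00557) did call Arntl lower. The Npas2 call held in 9 of 25 alternatives and was lost when any 1 of the 8 compared hearts was left out (adjusted p from 0.0563 to 0.123, edgeR), with library-size scaling (0.0563) and without the filter on low counts (0.0601). The groups did not overlap for 4 members (Arntl, Clock, Npas2 and Per3) and for 17.4% of all genes. The log2 fold changes of Cry1, Cry2, Per1, Nr1d1 and Nr1d2 lay between -0.22 and 0.21, and that of Per2 was 0.94 (SE 0.4). Without control TAC hearts 1 and 2, an alternative added after the data had been seen, Per3 remained called at 1.31, Npas2 was at -1.62 and no longer called, and Arntl was at -2.55 and Nr1d1 at -0.47. Fibroblast markers summed to 1100 and 1080 CPM in those hearts and to 645 and 733 CPM in control TAC hearts 3 and 4, all above the 531 to 606 CPM of control sham hearts, and 1 of the 5, Col1a1, was called higher (log2 fold change 1.21). Smooth muscle markers summed to at most 185 CPM after TAC and to 207 to 345 CPM after sham surgery, with 1 of the 3, Acta2, called lower (-1.27). Myh11 (0.15) and Tagln (0.53) went in the other direction and were not called. The part of these marker shifts was not tested.

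Deletion without pressure overload was compared next, between Trbp-cKO sham and control sham hearts. Arntl was at 0.168 of its control level (log2 fold change -2.57, SE 0.55, adjusted p = 0.0317, edgeR) and Per3 was 3.05-fold higher (1.61, SE 0.23, adjusted p = 0.00293). These 2 of 10 members were called, against 0.967% of all genes. Clock was lower (-0.67, SE 0.11, adjusted p = 0.00817, edgeR) and Nr1d2 higher (0.59, SE 0.14, adjusted p = 0.0475), both under the fold threshold, so that 4 members passed the adjusted p alone against 1.68% of all genes. For 7 members (Arntl, Clock and Npas2 lower, Cry2, Per3, Nr1d1 and Nr1d2 higher) the groups did not overlap, against 14.7% of all genes. Npas2 had a log2 fold change of -1.31 (SE 0.37) and an adjusted p of 0.0973 by edgeR, while it was called lower in a fit restricted to both groups (0.00433), by edgeR's exact test (3.42e-07) and by DESeq2 (0.0147). Cry1 was at -0.04 (SE 0.18). The Arntl call was lost when any heart of either group was left out, with an adjusted p of up to 0.0967 by edgeR at log2 fold changes from -2.69 to -2.47, whereas the Per3 call was kept in all 25 alternatives. Marker sums of other cell types also lay apart between these groups: 442 to 671 against 207 to 345 CPM for the 3 smooth muscle markers (Acta2 called higher at a log2 fold change of 1.18, with Myh11 at 0.03 and Tagln at 0.16), 678 to 870 against 531 to 606 CPM for the 5 fibroblast markers (none called; Lum passed the adjusted p with a log2 fold change of 0.74, under the fold threshold), and 26.2 to 30.2 against 13.7 to 19.4 CPM for the 4 adipocyte markers, of which Adipoq, Plin1 and Ucp1 were under 1 CPM in every heart. Macrophage, lymphocyte and erythroid sums overlapped. Their part in the clock values was not tested.

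After TAC, Trbp-cKO and control hearts had 0 of 10 members called by edgeR, against 2.46% of all genes, 1 member at an unadjusted p under 0.05 (Per3), against 21.4% of all genes, and 0 called by DESeq2. No member passed the adjusted p alone, against 5.53% of all genes. Per3 had a log2 fold change of -0.51 (SE 0.22, adjusted p = 0.194, edgeR), and its groups were apart by the small gap between 40.6 and 40.8 CPM; 2005 of the 19955 genes had groups that did not overlap. Arntl had 0.78 (SE 0.52) and Clock 0.22 (SE 0.11). Arntl varied inside both groups, the highest heart being 3.3 times the lowest in control TAC and 6.43 times in Trbp-cKO TAC hearts. Without control TAC hearts 1 and 2 the log2 fold change of Arntl was 1.78 and that of Nr1d1 0.75, again with no member called. Marker sums lay apart here too: 392 to 829 CPM in Trbp-cKO TAC against at most 185 CPM in control TAC hearts for smooth muscle (Acta2 called higher at 2.35, the other two not called), and 27.8 to 35.6 against at most 16.9 CPM for adipocytes. The fibroblast sums overlapped, with Col1a1 called higher at 1 and a median log2 fold change of -0.01 over the 5 markers. The part of these markers was not tested.

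TAC was compared with sham surgery within the deleted mice as well. Arntl was 3.52-fold higher in Trbp-cKO TAC than in Trbp-cKO sham hearts (log2 fold change 1.81, SE 0.54, adjusted p = 0.046, edgeR) although the groups overlapped, and Per3 was at 0.543 (-0.88, SE 0.22, adjusted p = 0.0198). These 2 of 10 members were called, against 5.57% of all genes. Clock (0.53, SE 0.11) and Nr1d2 (-0.56, SE 0.14) also passed the adjusted p, which makes 4 members against 9.94% of all genes. The groups did not overlap for Clock, Per3 and Nr1d2, and for 17.2% of all genes. The Arntl call held in 12 of 25 alternatives. It was lost without Trbp-cKO TAC heart 3 (log2 fold change 1.34) or heart 4 (1.54), without any 1 of the Trbp-cKO sham hearts (adjusted p from 0.0832 to 0.118, edgeR) or of the control sham hearts (0.0585 to 0.0616), and in a fit restricted to both groups (0.0776). The Per3 call held in 20 of 25. It was lost without Trbp-cKO TAC heart 3 (-0.66, under the fold threshold) or heart 4 (-0.81, adjusted p = 0.0538, edgeR), without Trbp-cKO sham heart 2 (-0.84, 0.0543) or heart 3 (-0.82, 0.0518), and in the restricted fit (0.0763). Beside these values, fibroblast markers summed to 906 to 1330 CPM in Trbp-cKO TAC and 678 to 870 CPM in Trbp-cKO sham hearts, and 1 of the 5, Col1a1, was called higher (1.74). The median log2 fold change of the 5 was -0.06, so the higher sum was not shared by most of them. Of the 3 smooth muscle markers, 1, Tagln, was called higher (0.82) while their sums overlapped. The part of these markers was not tested.

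**Figure D2:**
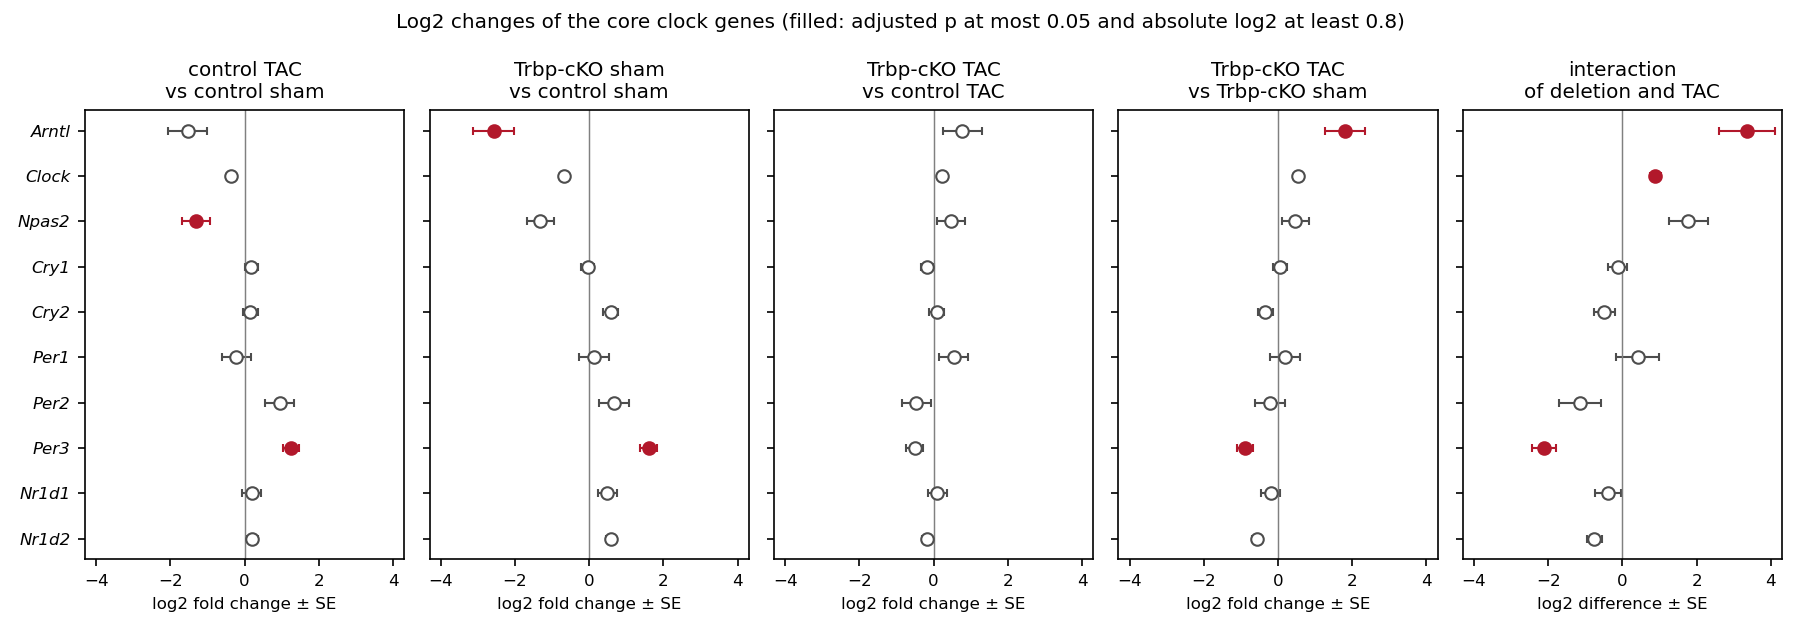
Log2 fold change ± SE of each member in the 4 pairwise comparisons and, at the right, the log2 difference of differences, from edgeR. Filled red points met both thresholds (adjusted p up to 0.05, log2 value of 0.8 or more in either direction). Per3 is filled in 4 of the 5 panels and Arntl in 3.

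The interaction asked whether the deletion effect in TAC hearts was unlike that in sham hearts. Arntl had a log2 difference of 3.35 (SE 0.76, adjusted p = 0.0475, edgeR), Clock of 0.89 (SE 0.16, adjusted p = 0.0154) and Per3 of -2.12 (SE 0.32, adjusted p = 0.00635). These 3 of 10 members were called, against 0.872% of all genes, and the same 3 passed the adjusted p alone, against 1.05% of all genes. Npas2 had 1.78 (SE 0.52, adjusted p = 0.12, edgeR) and was called by DESeq2 (1.79, adjusted p = 0.023). Nr1d2 had -0.76 (SE 0.2) and Per2 -1.15 (SE 0.56), and Cry1, Cry2, Per1 and Nr1d1 lay between -0.49 and 0.41. Arntl remained called in 9 of 23 alternatives, with values from 2.88 to 4.36, Clock in 22, the exception being the replicate block (adjusted p = 0.0509, edgeR), and Per3 in all 23. Among the cell type markers, the fibroblast gene Lum was called lower in the interaction (-0.86) and the atrial gene Myl4 higher (1.64); their part was not tested. The 4 pairwise comparisons and the interaction share hearts and are not independent of each other.

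The members were also set against Arntl heart by heart, as Pearson's r of log2 CPM over the 16 hearts, which share group differences. Clock (0.87) and Npas2 (0.88) followed Arntl, whereas Per3 (-0.9), Cry2 (-0.78), Nr1d2 (-0.77) and Per2 (-0.67) ran opposite. Cry1 (-0.38), Per1 (-0.35) and Nr1d1 (-0.02) were related weakly or not at all. Each heart with Arntl at 12.5 CPM or more had Per3 at 25.9 CPM or less, and the other 10 hearts had Per3 at 40 CPM or more.

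**Figure D3:**
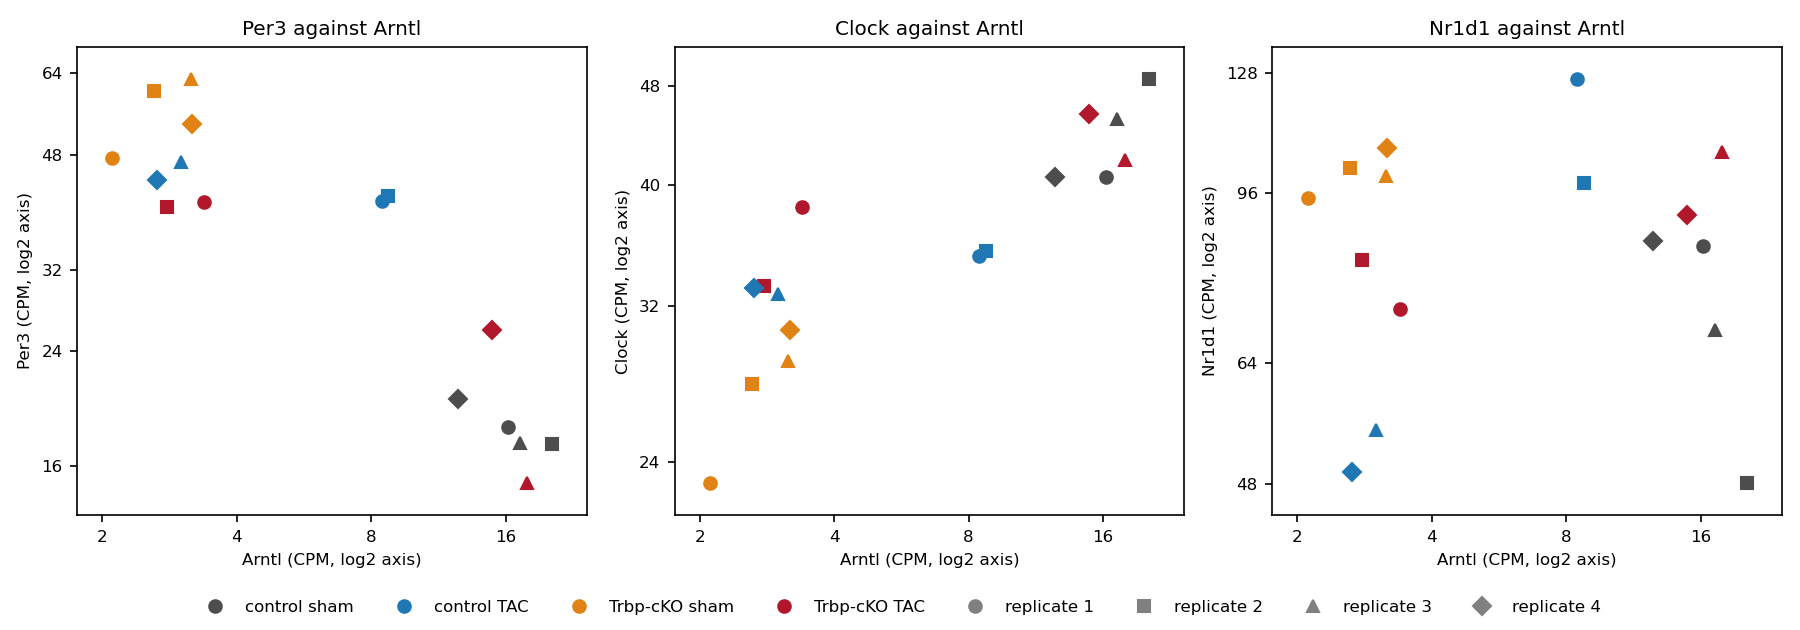
Per3, Clock and Nr1d1 against Arntl in the 16 hearts, in CPM on log2 axes, with colour for the group and shape for the replicate number. The red triangle and diamond (Trbp-cKO TAC hearts 3 and 4) sit with the control sham hearts in the Per3 and Clock panels, and r with Arntl is -0.9 for Per3, 0.87 for Clock and -0.02 for Nr1d1.

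The balance of activator to repressor was described inside each heart as a log2 ratio (pseudocount 0.5 CPM), which apart from the pseudocount needs no scaling between libraries. Arntl over Nr1d1 was -2.35, -1.23, -1.98 and -2.73 in control sham, -3.82, -3.42, -3.98 and -3.98 in control TAC, -5.19, -5.04, -4.78 and -4.87 in the Trbp-cKO sham group, and -4.24, -4.65, -2.53 and -2.57 in Trbp-cKO TAC hearts. The first 3 groups did not overlap each other. Control TAC hearts, which split for both genes, spanned -3.98 to -3.42 on this ratio, with a mean of -3.8 ± 0.27 (SD, n = 4). Arntl over Per2 averaged -0.38 ± 0.83 after sham surgery and -2.93 ± 1.28 after TAC in control hearts. With deletion it averaged -3.41 ± 0.55 after sham surgery and -1.88 ± 2.02 after TAC, where it ran from -3.59 to 0.6.

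**Figure D4:**
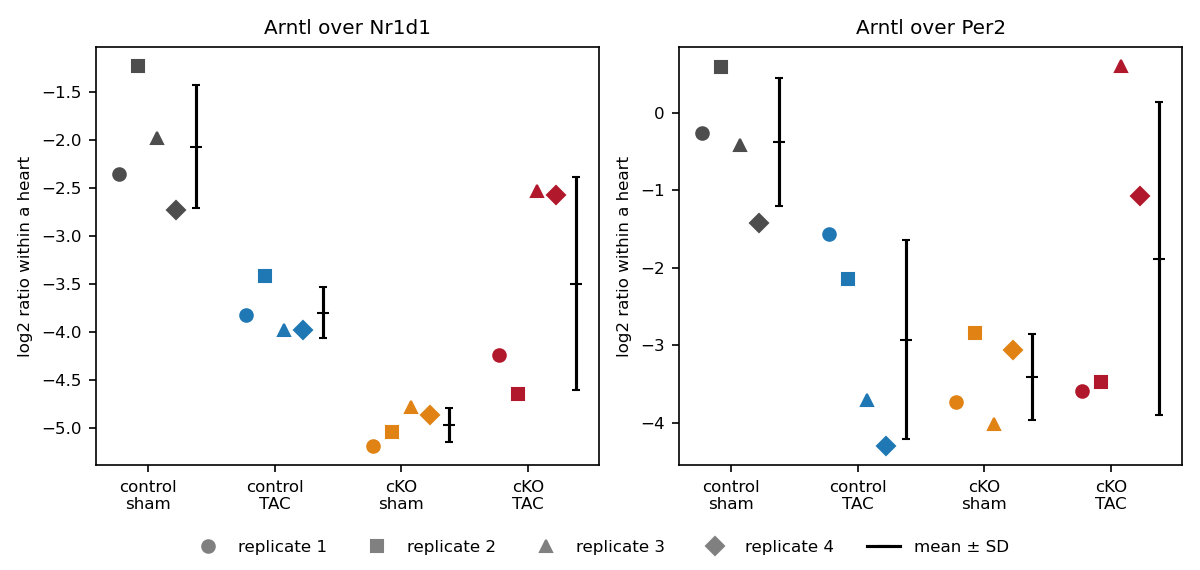
Log2 ratio of Arntl to Nr1d1 and of Arntl to Per2 within each heart, with 1 point per heart and the mean ± SD of 4 hearts in black. For Arntl over Nr1d1 the Trbp-cKO sham hearts (-5.19 to -4.78) lie below all others, and the Trbp-cKO TAC hearts form pairs near -4.24 and -2.53.

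Likeness to Arntl over the 16 hearts was ranked by Pearson's r of log2 CPM among 13547 genes with a mean log2 CPM of at least 1. Members of the loop are left out of the genes named here (Per3 was at -0.9 and Npas2 at 0.88). The most alike outside the members were Col5a3 (0.924), Adam19 (0.919), Ypel2 (0.914), Adamts4 (0.882) and Tspan18 (0.878). The most opposite outside the members were Tef (-0.968), Dbp (-0.91), Hlf (-0.866), Lrrn4cl (-0.852) and Gm21992 (-0.84). Tef, Dbp and Hlf are all the activating D-box factors of the list. With Spearman's rho as the measure, 5 of these 10 genes stayed among the extremes.

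The rest of the clock was read from a list of 24 further genes, all tested. It held 3 ROR activators, 4 D-box factors and 13 kinases, ligases and cofactors. The other 4, Bhlhe40, Bhlhe41, Ciart and Arntl2, act at E-boxes or on the Arntl and Clock pair. In control TAC against control sham hearts edgeR called 2 of the 24, against 3.75% of all genes: Dbp higher (log2 fold change 1.2, SE 0.28) and Nfil3 lower (-0.81, SE 0.19). For deletion in sham hearts it called 5 higher, namely Dbp (2.46, SE 0.29), Ciart (1.47, SE 0.32), a repressor of the Arntl and Clock pair, Hlf (1.4, SE 0.27), Tef (1.04, SE 0.2) and Bhlhe41 (0.96, SE 0.15), which competes for E-boxes, and 1 lower, Nfil3 (-1.71, SE 0.2), which makes 6 against 0.967% of all genes. Between Trbp-cKO TAC and control TAC hearts it called 0 against 2.46% of all genes, with 5 of 24 at an unadjusted p under 0.05, against 21.4% of all genes, and 0 called by DESeq2. TAC in the deleted mice went with higher Nfil3 (1.07, SE 0.2) and lower Dbp (-1.39, SE 0.28) and Hlf (-1.26, SE 0.27), 3 calls against 5.57% of all genes. The interaction called Nfil3 (1.88, SE 0.28) and, in the negative direction, Dbp (-2.6, SE 0.39), Hlf (-1.72, SE 0.38) and Tef (-1.3, SE 0.29), 4 calls against 0.872% of all genes. The D-box factors thus gave all the calls but those of Ciart and Bhlhe41. Neither edgeR nor DESeq2 called a ROR activator or a kinase, ligase or cofactor in any of the 5, while 0 to 1 ROR activators and 2 to 3 of the 13 had an unadjusted p under 0.05, against 13.7% to 26.6% of all genes. The list's median log2 fold change lay between -0.07 and 0.06, against -0.012 to 0.025 over all genes tested.

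Dbp, a direct output of the Arntl and Clock pair, was at 28.6, 21.1, 37 and 35 CPM in control hearts after sham surgery and at 71.4, 59.1, 73.7 and 75.9 CPM after TAC. With deletion it was at 190, 169, 153 and 157 CPM after sham surgery and at 85.6, 93.2, 31.8 and 43.9 CPM after TAC. Nfil3, which binds the same D-box as a repressor, was at 15.7, 20.6, 17.8 and 20.1, at 7.67, 11.6, 11.4 and 11.6, at 5.61, 5.75, 6.19 and 5.15, and at 10.5, 8.68, 17.9 and 10.6 CPM in the same groups. Dbp repeated the split of Trbp-cKO TAC hearts seen for Arntl and Per3, with hearts 3 and 4 near the control sham level. For Nfil3 heart 3 alone stood in the control sham range. Tef and Hlf were higher in control TAC hearts 3 and 4 (170 and 173 CPM for Tef) than in hearts 1 and 2 (108 and 111 CPM), the same pairs that differed in Arntl and in cardiomyocyte markers. Among the member windows searched only that of Per3 held D-box letters, and Per2 had no window to search. A part of the D-box factors in the Per3 values was not tested.

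**Figure D5:**
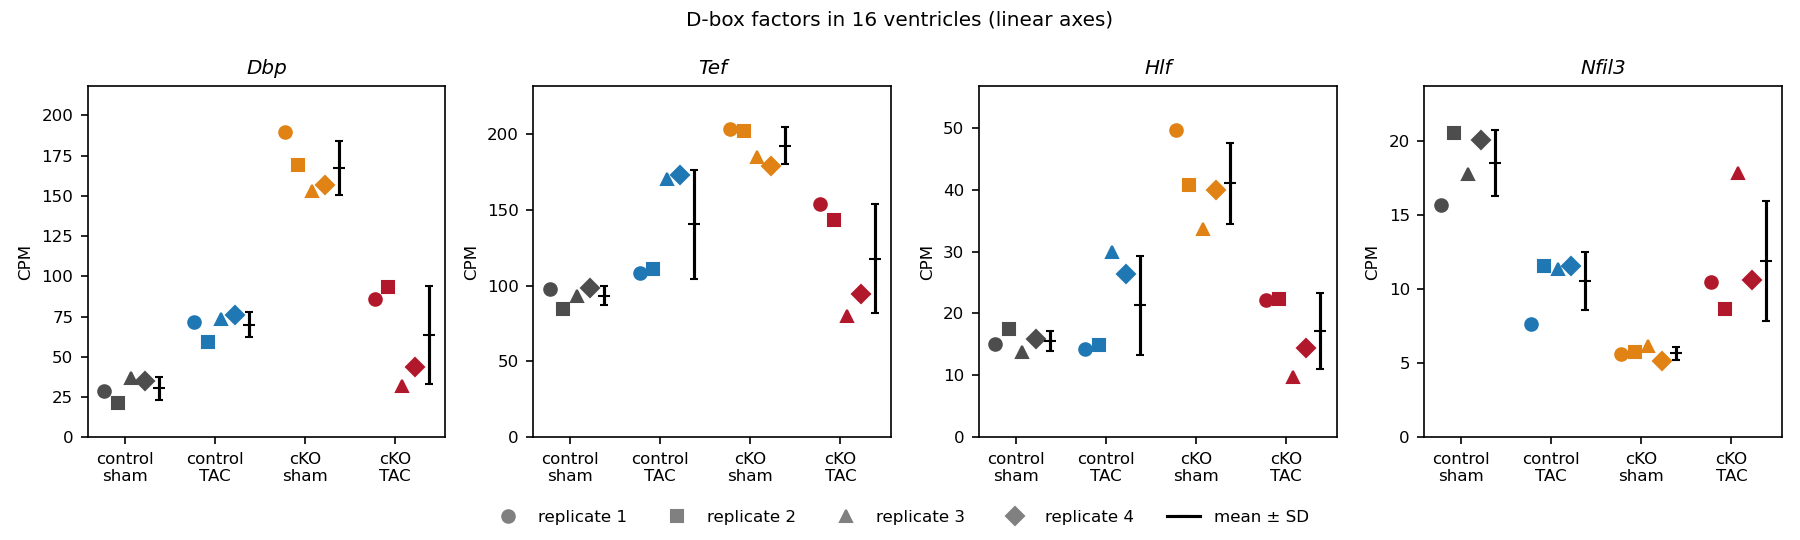
CPM of the D-box factors Dbp, Tef, Hlf and Nfil3 in each heart on linear axes that start at 0, with 1 point per heart and the mean ± SD of 4 hearts in black. Dbp is at 153 to 190 CPM in Trbp-cKO sham hearts against 21.1 to 37 CPM in control sham hearts, and Nfil3 runs the other way.

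Acutely induced genes were tabulated because Per1 and Per2 also respond to stress signals. The counts that follow stand against 3.75% of all genes called for TAC in control hearts, 0.967% for deletion in sham hearts, 5.57% for TAC in Trbp-cKO hearts and 0.872% for the interaction. Of 12 immediate early genes edgeR called Egr2 (-2.54, SE 0.58) and Egr3 (-2.03, SE 0.45) lower in Trbp-cKO sham than in control sham hearts, and Egr2 (2.21, SE 0.58) and Atf3 (1.4, SE 0.32) higher in Trbp-cKO TAC than in Trbp-cKO sham hearts. Egr2 (3.81, SE 0.8) and Atf3 (2.1, SE 0.45) were also called in the interaction. The sum of the 12 was highest in control sham heart 2 (1620 CPM), where Arntl was at 20.3 and Nr1d1 at 48.1 CPM, and next in control TAC heart 2 (1010 CPM), where they were at 8.75 and 98.3 CPM. Of 7 glucocorticoid-responsive genes, Fkbp5 (1.87, SE 0.4) and Zbtb16 (1.77, SE 0.45) were called higher in Trbp-cKO TAC than in Trbp-cKO sham hearts. Errfi1 was called lower in control TAC (-2.09, SE 0.4) and in Trbp-cKO sham hearts (-2.09, SE 0.4) than in control sham hearts, and had an interaction of 2.54 (SE 0.55). The sum of the 7 was 229 CPM in Trbp-cKO TAC heart 3 and 1000 CPM in heart 4, the hearts with Per1 at 16.7 and 124 CPM. Other hearts did not follow that order. Sums of 216 and 199 CPM in Trbp-cKO sham hearts 2 and 4 went with Per1 at 65.8 and 74 CPM. In control sham heart 1 a sum of 501 CPM went with Per1 at 51 CPM. The part of these signals in the clock values was not tested.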

How the data were processed

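RNA was measured in 16 ventricles, 4 per group by the labels. The authors selected polyadenylated RNA, sequenced paired reads of 150 bases, trimmed them (cutadapt 2.3), aligned them to GRCm38 (HISAT2 2.1.0) and assembled and quantified transcripts (StringTie 1.3.4) with its prepDE script. The deposited values are whole-number counts per gene and heart, without normalization. The read length given to prepDE and the strandedness of the libraries are not given in the sources used here, so fits were repeated on halved counts, and reads of opposite-strand genes cannot be told apart.

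Here counts were fitted with edgeR 4.0.16 in R 4.3.3 (default filter on the groups, TMM, 1 robust quasi-likelihood fit of all 16 hearts, no covariate). Adjusted p are Benjamini-Hochberg values over 19955 genes, two-sided, and a gene was called at adjusted p up to 0.05 with a change of 0.8 or more on the log2 scale. The fit was run on simulated counts with known fold changes, as a check of the code. All hearts of a group shared the same mean there, so a split like that of the Trbp-cKO TAC hearts was not simulated. Symbols came from GENCODE M21, which placed 55480 of 55573 identifiers. The members and all gene lists were chosen with earlier results of these data known, from general knowledge of the clock, of acute response genes and of cell type markers. The genes named are the 10 members, Tarbp2, every called gene of the other clock lists (up to 6 in a comparison), the 5 genes outside the members most and least like Arntl, and listed acute response and marker genes. At these total counts (45166994 to 68274222) the spread between hearts set the precision. Lists of smooth muscle, fibroblast, macrophage, lymphocyte, erythroid and adipocyte markers were tabulated too. Alternatives were library-size scaling, DESeq2 1.42.0, 2 other filters, 2 other fold thresholds, a fit restricted to the groups compared, the exact test of edgeR, halved counts, a replicate block and each heart left out.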

Additional observations from a re-analysis of the deposited data

Results flagged for a closer look

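The difference between Trbp-cKO and control hearts was called unlike in sham and TAC hearts for 3 members, by edgeR's interaction test over all genes. Deletion, drug and hour of collection cannot be told apart in it. The log2 difference was 3.35 for Arntl (adjusted p = 0.0475, edgeR), where deletion went with a log2 fold change of -2.57 after sham surgery and of 0.78 after TAC. It was 0.89 for Clock (adjusted p = 0.0154, edgeR; -0.67 after sham surgery and 0.22 after TAC) and -2.12 for Per3 (adjusted p = 0.00635, edgeR; 1.61 and -0.51). The Arntl value ran from 2.88 without Trbp-cKO TAC heart 3 to 3.66 without Trbp-cKO TAC heart 2, and was 4.36 without control TAC hearts 1 and 2. The Arntl call held in only 9 of 23 alternatives, that of Clock in 22 and that of Per3 in all 23. Arntl was at 3.39, 2.79, 17.9 and 14.9 CPM in Trbp-cKO TAC hearts 1 to 4, so that group was split.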

How the results depend on the processing

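By comparison, the members called were 2 for TAC in control hearts, 2 for deletion in sham hearts, 0 for deletion in TAC hearts, 2 for TAC in Trbp-cKO hearts and 3 for the interaction. In that order, leaving out each heart in turn gave 1 to 2, 1 to 2, 0 to 0, 0 to 2 and 2 to 4 members. For TAC in control hearts there was 1 with library-size scaling, 1 without the filter on low counts and 1 without control TAC hearts 1 and 2. For deletion in sham hearts there was 1 without the filter and there were 4 without a fold threshold. For TAC in Trbp-cKO hearts there was 1 without the filter, 1 with a fold threshold of 1 on the log2 scale, 4 without one and 0 in a fit restricted to the groups compared. The cause of these shifts was not tested. Library-size scaling moved the median log2 fold change of all genes by 0.1 for deletion in sham hearts and by 0.14 for deletion in TAC hearts. Apart from the replicate block, counts under the other settings were within 1.5 times those given first, and no called member changed sign under any alternative run. Among log2 fold changes that were not called, the sign changed with library-size scaling for Cry1 (deletion in sham hearts, 0.06) and without control TAC hearts 1 and 2 for Per1 (0.12) and Nr1d1 (-0.47) for TAC in control hearts, Cry2 for deletion in TAC hearts (-0.26) and Nr1d1 for the interaction (0.26). Leaving out each heart in turn, values spanned 0 for Nr1d1 for TAC in control hearts (-0.1 to 0.37), for Cry1 for deletion in sham hearts (-0.14 to 0.01), for Cry1 (-0.31 to 0.01), Cry2 (-0.06 to 0.23) and Nr1d1 (-0.08 to 0.38) for deletion in TAC hearts, for Cry1 (-0.03 to 0.16), Per1 (-0.1 to 0.52) and Per2 (-0.46 to 0.13) for TAC in Trbp-cKO hearts, and for Cry1 in the interaction (-0.27 to 0.05). With 1 CPM as the pseudocount the ratio of Arntl to Nr1d1 in Trbp-cKO sham hearts was -4.77. At these depths every member had counts in each heart, and the spread between 4 hearts limits what can be told.

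Replicate numbers are shared by the groups, but the labels do not tie them to a litter, batch or day. Deviations of same-numbered hearts correlated between -0.58 and 0.31 over 24 pairs (mean -0.07, against 0.02 for other pairs). These values cannot tell whether same-numbered hearts shared a litter, batch or day, because deviations from a group mean cancel over its few hearts. With the replicate number as a block 1 member was called for TAC in control hearts, 1 for deletion in sham hearts, 0 for deletion in TAC hearts, 1 for TAC in Trbp-cKO hearts and 1 for the interaction.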
